A study of Homo sapiens with 4 samples.

Results

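The genes of the p53 axis and of the CDK inhibitors examined here were 9 in number: MDM2, GADD45A, CDKN1A, CDKN1B, CDKN1C, CDKN2A, CDKN2B, CDKN2C and RB1. They were chosen by name, and all 9 were found among the 58735 genes counted, with at least 507 reads in each library, so that no filter on low values removed any of them. The RNA-seq data hold 4 libraries, 1 per condition, of the established HCC line MHCC-97H, which is metastatic. Cells were given PBS (the control), or 2 μg of migrasomes (Migs, vesicles that migrating cells leave behind on their retraction fibers), for 24 h in each case. The normo-Migs came from MHCC-97H cells in normoxia, the hypo-Migs from the same line in hypoxia, and the CD147KO-Migs from a CD147-knockout MHCC-97H derivative in hypoxia. The recipient cells carried no knockout in any condition, and the labels put all 4 libraries in the same batch.

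Progress from G1 into S phase is driven by cyclin D with CDK4 or CDK6 and by cyclin E with CDK2, which phosphorylate the RB protein and release E2F transcription factors from it. The INK4 proteins (p16 from CDKN2A, p15 from CDKN2B, p18 from CDKN2C) bind CDK4 and CDK6, whereas the CIP/KIP proteins (p21 from CDKN1A, p27 from CDKN1B, p57 from CDKN1C) act on cyclin-CDK complexes more broadly. p53 activates CDKN1A, GADD45A and MDM2, and MDM2 is the ubiquitin ligase that in turn marks p53 for degradation. In liver cancer the p53 and RB pathways are among those most often altered. Transcripts of the CDK inhibitors and p53 targets are commonly read as marks of growth arrest and stress.

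CDKN1A and CDKN2B were the members with the largest differences from PBS, and the bases upstream of their RefSeq starts are shown for that reason. The capitals mark the GC box, GGGCGG on either strand, which Sp1-type factors bind. The CDKN1A stretch is chr6:36678464-36678657 on the plus strand and the CDKN2B stretch is chr9:22009364-22009555 on the minus strand (RefSeq, GRCh38.p14), and each ends just before the first exonic base of the gene that GENCODE release 29 places in the window.
CDKN1A: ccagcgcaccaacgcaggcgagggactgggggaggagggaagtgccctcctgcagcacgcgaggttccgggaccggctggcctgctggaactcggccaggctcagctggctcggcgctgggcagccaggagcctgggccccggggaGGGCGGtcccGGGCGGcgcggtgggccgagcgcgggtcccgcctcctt
CDKN2B: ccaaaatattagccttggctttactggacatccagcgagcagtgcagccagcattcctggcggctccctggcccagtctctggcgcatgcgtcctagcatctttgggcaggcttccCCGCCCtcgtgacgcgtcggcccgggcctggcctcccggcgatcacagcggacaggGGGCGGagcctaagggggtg

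The full window of 250 bases before the RefSeq start held 4 GC boxes for CDKN1A, counting overlapping ones, and 2 for CDKN2B. At least 1 GC box was found in 42.6% of the 35116 RefSeq promoter windows of that length, so its presence does not set these genes apart. The p53 half-site was searched on both strands as a single half-site with no mismatch allowed. It was found in 5.57% of all windows, and its letters are not in the CDKN1A and CDKN2B windows. Those of MDM2, CDKN1B, CDKN2A and CDKN2C hold no exact match either, whereas the RB1 window, which lies inside the gene, holds 1. Sites outside the 250 bases, or departing from the pattern in any letter, were not searched for. The absence of a match therefore does not show that a gene, or a window, lacks p53 sites. The G and C content was 76.4% for CDKN1A and 66.4% for CDKN2B, against a median of 58.0% over all windows. It does not set these 2 genes apart from the other members either. CDKN1B had 64.4%, both CDKN2A windows 66.8%, and the MDM2 windows 59.2% or 74.4%. The CDKN2C windows ranged from 45.6% to 77.2%, and the RB1 window had 36.8%. That RB1 window, chr13:48476200-48476449, lies far inside the gene, which starts at 48303726 on the plus strand. The bases before the first base of RB1 were not among the windows.

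CDKN2A and CDKN2B are neighbours on chromosome 9 and share some sequence. Of the 4550 stretches of 50 bases in CDKN2A transcripts, 31 also occur in CDKN2B transcripts, which is 0.681% of the CDKN2A stretches and 0.765% of the 4051 CDKN2B stretches. Reads within them cannot be assigned to 1 gene. CDKN2A also shares 341 exonic bases (7.88% of its exonic length) with CDKN2B-AS1, the antisense RNA ANRIL, which itself had 86 to 129 reads per library. Strand use in the counting is not given in the sources used here, so reads of the shared bases could not be told apart. MDM2 overlaps CPM on the opposite strand by 133 exonic bases (1.00%), and CPM had 642 reads with PBS and 5214 to 6692 with Migs. The part of this overlap in the MDM2 values was not tested.

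The genes lie at chr6:36676460-36687339 (CDKN1A), chr12:12715058-12722371 (CDKN1B), chr11:2883213-2885773 (CDKN1C), chr9:21967753-21995301 (CDKN2A) and chr9:22002903-22009363 (CDKN2B). CDKN2C lies at chr1:50960745-50974633, GADD45A at chr1:67685061-67688338, MDM2 at chr12:68808176-68850686 and RB1 at chr13:48303726-48599436. Reads were counted over all exons of a gene, untranslated ones included.

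Reads on genes numbered 33882496 to 40285223 per library. The library labelled PBS stood apart from the other 3: mitochondrial transcripts took 2.69% of its reads against 5.00% to 5.16% with Migs, and 27.2% to 28.3% of the 19895 genes tested met the criteria for DEGs in a pair with PBS, against 4.90% to 5.05% in a pair of Mig libraries. To meet these criteria, a gene needed an adjusted p no higher than 0.05 (exact binomial test, two-sided) and a log2 fold change of 1 or more in either direction. The 3 pairs with PBS share that 1 library, so they are not independent of each other, and the pairs of Mig libraries are the comparisons without it. Of 18 liver genes, ALB, AFP, APOB, APOC3 and TTR had 0 reads in all 4 libraries, while KRT8 had 105571 to 167573 reads. FGB and FGA, which encode fibrinogen chains, had 0 reads with PBS and 561 to 832 and 395 to 493 with Migs, and the liver transcription factor gene FOXA2 had 0 and 41 to 60. Without KRT8 and KRT18 the liver list summed to 5.25 reads per 1000000 (CPM) with PBS and to 40.5 to 54.5 CPM with Migs. Most of the sum with Migs came from FGB, FGA and a further fibrinogen gene, FGG (6 reads with PBS, 205 to 381 with Migs). Of the 11 liver genes tested, 5 met the criteria as higher and 1 as lower in all 3 pairs with PBS, so the list did not go 1 way. The 12 genes of leukocytes, endothelial cells and fibroblasts summed to 27.3 CPM with PBS and 163 to 175 CPM with Migs, of which PDGFRB (70 reads with PBS, 1747 to 2446 with Migs) and COL1A1 (681 and 3472 to 4017) made up most. CD3E was at 0 in all libraries and PTPRC had at most 2 reads. BSG, which encodes CD147 and was intact in the recipient cells, had 48157 reads with PBS and 34021 to 37109 with Migs. Whether the library labelled PBS came from the same cells as the other 3 was not tested, and with 1 library per condition a difference in the cells and a response to Migs cannot be told apart in any fold against PBS given below. The part of these differences in the results on the 9 genes was not tested either. Since the recipients were a bulk culture, fewer cells of a kind and less RNA per cell cannot be told apart.

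The first comparison asked how the 9 genes differed between cells given Migs and cells given PBS. Only CDKN1A met the criteria, and it did so in each of the 3 pairs, higher with Migs by 2.31-fold to 2.42-fold. CDKN2B was higher by 1.88-fold to 1.91-fold, just short of the fold criterion, and the other 7 genes lay within 1.37-fold of PBS. A count of 1 in 9 was not above the background, since 27.2% of all genes tested met the criteria with normo-Migs, 28.3% with hypo-Migs, and for CD147KO-Migs 27.5%. Counting only genes that were higher with Migs, as CDKN1A was, the shares were 16.5%, 17.5% and 16.6%. Among the 9112 genes that averaged 500 reads or more over the 4 libraries, a filter chosen after seeing the data, the shares were 12.0%, 12.5% and 12.5%, and the 9 genes all belong to that group.

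**Figure D1:**
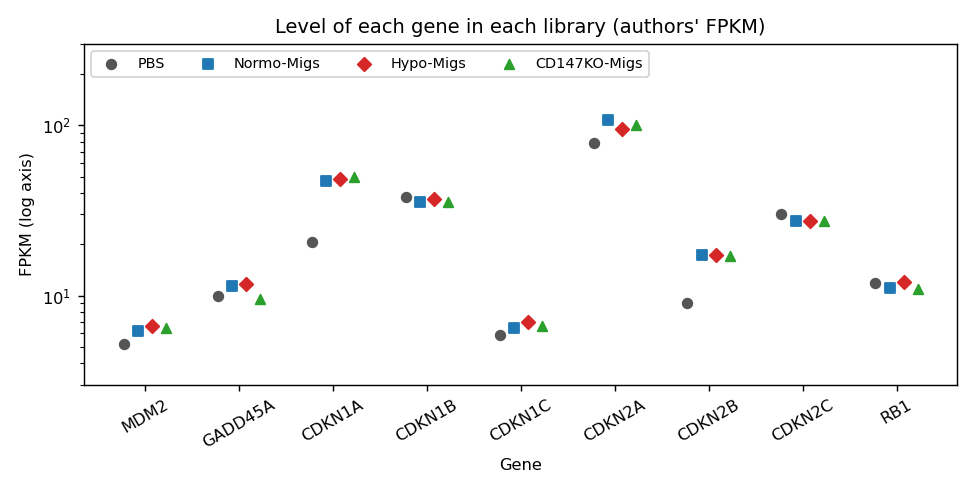
Level of each of the 9 genes (x axis) in the 4 libraries, as the FPKM values deposited by the authors (y axis, log scale), 1 point per library. CDKN1A and CDKN2B show 1 low point (PBS, 20.6 and 9.11) under 3 points close together (47.3 to 49.4, and at most 17.3), whereas the points of the other genes lie near each other.

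Among the p53 targets, CDKN1A encodes p21, the inhibitor that mediates p53-driven G1 arrest. It had 2170 reads with PBS, and 4961, 5981 and 5327 reads with normo-Migs, hypo-Migs and CD147KO-Migs, which is 64.0 CPM (95% Wilson interval 61.4 to 66.8) with PBS and 144, 148 and 152 CPM with the Migs in that order. All 3 Mig libraries lay above PBS and within 1.04-fold of each other. The log2 fold change was 1.21 with normo-Migs (exact 95% interval 1.14 to 1.28), 1.24 with hypo-Migs (1.17 to 1.32) and 1.27 with CD147KO-Migs (1.20 to 1.35). The adjusted p was 2.90e-252, 3.02e-288 and 1.22e-288 in edgeR's exact binomial test. These p-values set reads against counting error only and compare libraries, not conditions. Among the 19895 genes tested, 12.6% met the criteria with a higher level in all 3 pairs with PBS, and CDKN1A ranked 3040th, 3133rd and 2975th from the highest log2 fold change, so that at most 15.7% of the genes ranked as high in any pair. With an assumed coefficient of variation of 0.4, CDKN1A no longer met the criteria, with an adjusted p of 0.630 to 0.685 in edgeR's exact test. DESeq2, run with all 4 libraries as if they were replicates, gave an adjusted p of 0.544 to 0.565 for it.

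MDM2 was higher with Migs by a much smaller step. In the order PBS, normo-Migs, hypo-Migs, CD147KO-Migs, it had 2391, 2823, 3562 and 3051 reads and FPKM of 5.20, 6.18, 6.62 and 6.50. PBS was the lowest library, and neither CD147KO-Migs and hypo-Migs nor CD147KO-Migs and normo-Migs differed beyond counting error. The log2 fold changes against PBS were 0.26, 0.36 and 0.33 for normo-Migs, hypo-Migs and CD147KO-Migs, below the fold criterion, with adjusted p of 3.25e-10, 1.68e-20 and 1.39e-16 in edgeR's exact test. With an assumed coefficient of variation of 0.1 the adjusted p became 0.336, 0.158 and 0.200.

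GADD45A encodes a stress-induced protein that binds PCNA and p21 and takes part in DNA repair and in arrest at G2. In the same order it had 709, 810, 981 and 701 reads and FPKM of 9.91, 11.4, 11.7 and 9.58. The PBS and CD147KO-Migs libraries were the low pair and the other 2 the high pair, a pattern no other member had. Against PBS the log2 fold change was 0.21 with normo-Migs, 0.25 with hypo-Migs, and for CD147KO-Migs -0.037, and the first 2 passed the adjusted p alone (0.00772 and 0.000786 in edgeR's exact test).

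In the CIP/KIP family, CDKN1B and CDKN1C stayed near PBS while CDKN1A did not. CDKN1B, whose protein p27 is held mainly by degradation through SKP2, had 3712 reads with PBS and 3407, 4223 and 3525 with the Migs in that order, and FPKM of 38.2, 35.3, 37.1 and 35.5. No neighbours in the order of its 4 levels differed beyond counting error. Its log2 fold changes against PBS were -0.11, -0.032 and -0.096 for normo-Migs, hypo-Migs and CD147KO-Migs, with adjusted p of 0.00363, 0.390 and 0.00797 in edgeR's exact test.

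CDKN1C, the imprinted inhibitor p57, had the fewest reads of the 9 genes namely 507 with PBS and 551, 706 and 582 with the Migs in that order. Its FPKM of 5.92, 6.47, 7.04 and 6.64 were lowest with PBS, although no neighbours in that order differed beyond counting error. The log2 fold changes were 0.14, 0.26 and 0.18, and that of hypo-Migs passed the adjusted p alone (0.00341 in edgeR's exact test).

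Per length, the 3 CIP/KIP genes summed to 64.7 FPKM with PBS and to 89.1, 92.6 and 91.5 FPKM with normo-Migs, hypo-Migs and CD147KO-Migs. CDKN1B was the largest part with PBS, at 59.0% of the sum against 31.8% for CDKN1A. With Migs the order was turned, CDKN1A holding 52.3% to 54.0% and CDKN1B 38.8% to 40.1%. CDKN1C held 7.26% to 9.15% in all libraries.

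**Figure D2:**
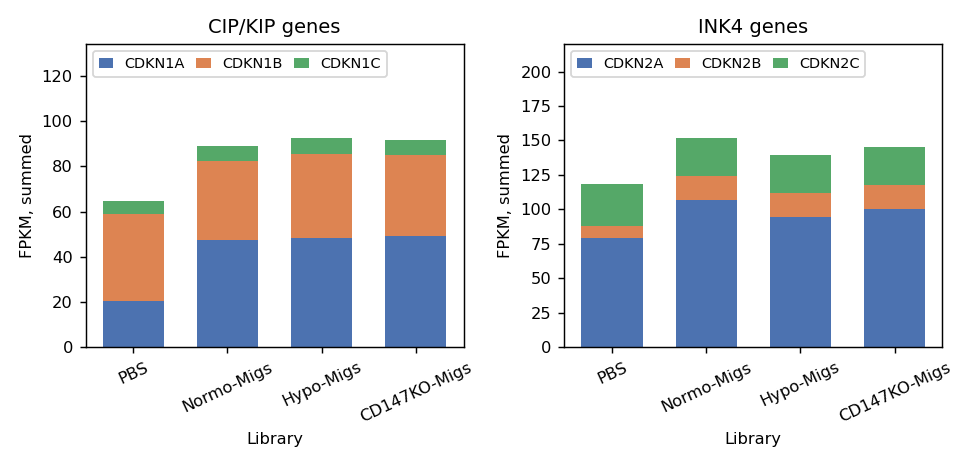
FPKM of the CIP/KIP genes (left) and of the INK4 genes (right), stacked by gene (y axis, FPKM from 0) in each of the 4 libraries (x axis). The CDKN1A segment is larger than that of CDKN1B with Migs and smaller with PBS, while CDKN2A is the largest INK4 segment in every library.

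In the INK4 family, CDKN2A was the most highly expressed gene per length of the 9. Its locus encodes p16, and in another reading frame p14ARF, which inhibits MDM2. These products cannot be separated in counts per gene. CDKN2A had 11802 reads with PBS and 15934, 16567 and 15380 with normo-Migs, hypo-Migs and CD147KO-Migs, and FPKM of 78.8, 107, 94.5 and 100 (authors' values). Scaled to library size the order was normo-Migs, CD147KO-Migs, hypo-Migs and PBS, and each step differed beyond counting error. Against PBS the log2 fold change was 0.45 with normo-Migs, 0.27 with hypo-Migs, and for CD147KO-Migs 0.36, below the fold criterion, and the adjusted p was at most 1.31e-54 in R's exact binomial test. With an assumed coefficient of variation of 0.1 it became 0.0646, 0.294 and 0.150.

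CDKN2B, whose protein p15 is induced by TGF-beta in epithelial cells, had 1279 reads with PBS and 2419, 2829 and 2442 with the Migs in that order. This was 37.7 CPM with PBS (95% Wilson interval 35.7 to 39.9) and 70.0, 70.2 and 69.7 CPM with the Migs, which lay within 1.02-fold of each other and well above PBS. The log2 fold change was 0.94 (exact 95% interval 0.84 to 1.04), 0.93 (0.83 to 1.02) and 0.91 (0.81 to 1.01) for normo-Migs, hypo-Migs and CD147KO-Migs. The criterion of 1 thus lay inside each interval, and the adjusted p was 7.87e-82, 1.70e-85 and 1.29e-77 in edgeR's exact test. CDKN1A and CDKN2B were the 2 members that still passed the adjusted p alone in each pair with PBS when a coefficient of variation of 0.1 was assumed, with values for CDKN2B of 5.87e-05, 6.63e-05 and 9.39e-05.

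CDKN2C, the INK4 gene on chromosome 1, went slightly the other way. It had 3452 reads with PBS and 3110, 3680 and 3221 with the Migs, and FPKM of 30.1, 27.3, 27.4 and 27.5. PBS was the highest library, and the Mig libraries lay within 1.01-fold of each other. The log2 fold changes were -0.13, -0.13 and -0.12, with adjusted p of 0.000423, 0.000445 and 0.00113 in edgeR's exact test. Per length the 3 INK4 genes summed to 118 FPKM with PBS and to 139 to 152 FPKM with Migs, and the share of CDKN2B in that sum was 7.72% with PBS and 11.4% to 12.4% with Migs.

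RB1 encodes the pocket protein on which both inhibitor families finally act. Its reads numbered 2641 with PBS and 2458, 3129 and 2488 with normo-Migs, hypo-Migs and CD147KO-Migs, and its FPKM were 11.8, 11.1, 12.0 and 10.9. Hypo-Migs and PBS were the higher pair and did not differ beyond counting error from each other. The log2 fold change against PBS was -0.085 with normo-Migs, 0.027 with hypo-Migs, and for CD147KO-Migs -0.11, and that of CD147KO-Migs alone passed the adjusted p (0.0124 in edgeR's exact test).

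Over the 9 genes, 7 passed the adjusted p alone in each pair with PBS, as 69.7%, 71.3% and 69.9% of all genes tested did, and the 7 were not the same genes in each pair. The median absolute log2 fold change of the 9 was 0.21, 0.26 and 0.18 with normo-Migs, hypo-Migs and CD147KO-Migs, whereas that of all genes tested was 0.56, 0.56 and 0.57. Among the 9112 genes that averaged 500 reads or more, the group that holds the 9, it was 0.37, 0.38 and 0.38. The median signed log2 fold change of the 9 was 0.21, 0.26 and 0.18, against 0.028, 0.042 and 0.031 over all genes tested.

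**Figure D3:**
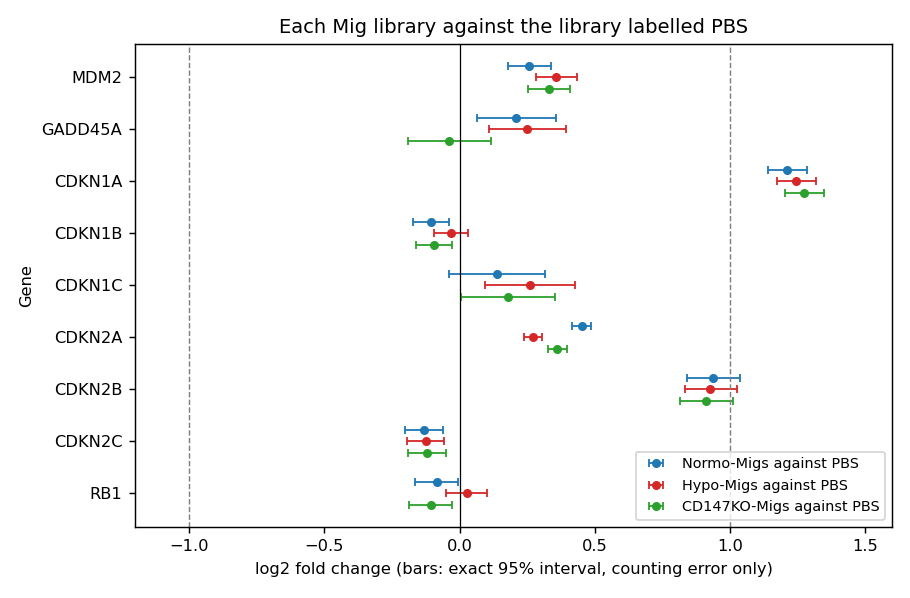
Log2 fold change of the 9 genes (y axis) in each Mig library against the library labelled PBS (x axis), with exact 95% intervals that cover counting error only. Dashed lines mark the fold criterion of 1: the 3 intervals of CDKN1A (1.14 to 1.35) lie beyond it, those of CDKN2B (0.81 to 1.04) span it, and those of the other genes lie between the lines.

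The comparisons among Mig libraries asked whether hypoxia of the donor cells, or their CD147, made a difference to the recipients. None of the 9 genes met the criteria in any of the 3 pairs, where 4.91%, 5.05% and 4.90% of all genes tested did for hypo-Migs against normo-Migs, hypo-Migs against CD147KO-Migs and normo-Migs against CD147KO-Migs. By the adjusted p alone in the exact binomial test, 3, 3 and 2 of the 9 genes passed in these pairs, where 24.7%, 25.2% and 24.8% of all genes did. CDKN1A, CDKN2B and CDKN2C were not among them, and the highest Mig library exceeded the lowest by 1.04-fold, 1.02-fold and 1.01-fold for these genes. Among the 9112 genes that averaged 500 reads or more, a filter chosen after seeing the data, 5, 4 and 5 met the criteria in these pairs. By the adjusted p alone, 3254, 3260 and 3215 of the 9112 passed. The 9 genes all belong to that group, so 0 of 9 meeting the criteria was near its background.

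CDKN2A passed in all 3 pairs. Its log2 fold change was -0.18 for hypo-Migs against normo-Migs (exact 95% interval -0.21 to -0.15, adjusted p = 9.46e-27 in R's exact binomial test) and -0.089 for hypo-Migs against CD147KO-Migs (adjusted p = 1.31e-06). It was 0.091 for normo-Migs against CD147KO-Migs (adjusted p = 7.84e-07 in the same exact test).

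GADD45A was the member with the widest spread among the Mig libraries, 1.22-fold. It was lower with CD147KO-Migs than with hypo-Migs (log2 fold change 0.29 for hypo-Migs against CD147KO-Migs, exact 95% interval 0.15 to 0.43, adjusted p = 0.000732 in edgeR's exact test). It was also lower than with normo-Migs (0.25 for normo-Migs against CD147KO-Migs, 0.10 to 0.40, adjusted p = 0.00636 in edgeR's exact test). Hypo-Migs and normo-Migs differed by 0.040 (-0.096 to 0.18).

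RB1 was higher with hypo-Migs than with normo-Migs by 0.11 and than with CD147KO-Migs by 0.13 on the log2 scale (adjusted p = 0.0212 and 0.00466 in edgeR's exact test). MDM2 was higher with hypo-Migs than with normo-Migs by 0.099 (adjusted p = 0.0301 in edgeR's exact test). With an assumed coefficient of variation of 0.1, no member passed the adjusted p in any pair of Mig libraries, the smallest value being 0.976 for GADD45A between hypo-Migs and CD147KO-Migs in edgeR's exact test.

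**Figure D4:**
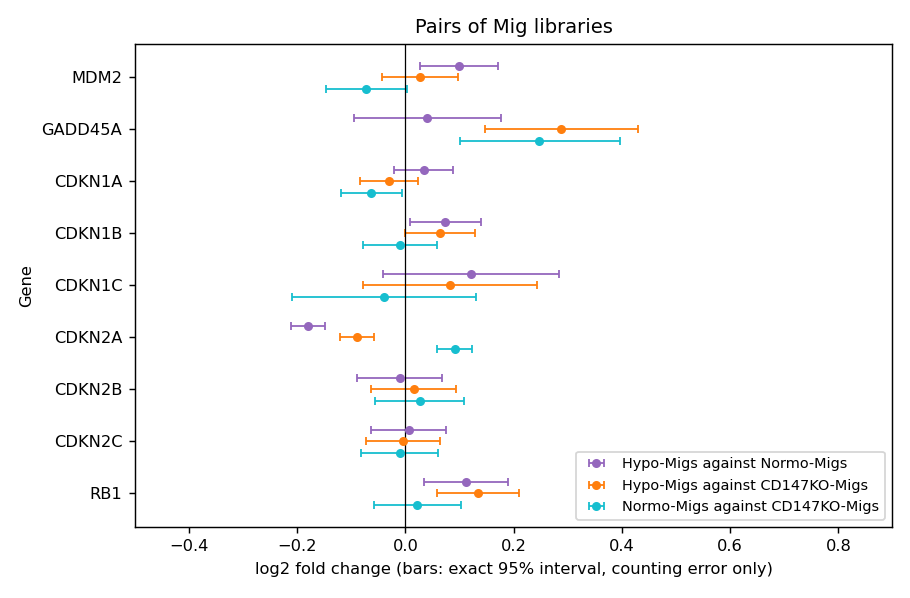
Log2 fold change of the 9 genes (y axis) in the 3 pairs of Mig libraries (x axis), with exact 95% intervals that cover counting error only. The intervals of CDKN2A exclude 0 in every pair, those of GADD45A lie above 0 in both pairs with CD147KO-Migs, and every value lies between -0.18 and 0.29.

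The p53 pathway around the members was read from lists of its regulators and targets. MDM4, the MDM2 partner that inhibits p53, had 1937 reads with PBS and 1326 to 1649 with Migs, and its log2 fold changes of -0.53 to -0.37 did not meet the criteria.

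TP73 and HIPK2 rose in all 3 pairs with PBS. TP73, a p53 family member, had 43 reads with PBS and 503, 500 and 537 with normo-Migs, hypo-Migs and CD147KO-Migs (log2 fold changes 3.51, 3.27 and 3.56). HIPK2, a kinase that phosphorylates p53, had 2072 reads and 4873, 5944 and 5428 (1.25, 1.30 and 1.37). These were the genes of the list of 18 that were higher in all 3 pairs, where 12.6% of all genes tested were, and no gene of the list met the criteria in a pair of Mig libraries.

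Of 40 direct p53 targets other than the members, 39 were tested, and 3 were higher and 4 lower in all 3 pairs with PBS, against 12.6% higher and 6.66% lower over all genes tested. The median log2 fold change of the list was -0.028, -0.031 and 0.26 with normo-Migs, hypo-Migs and CD147KO-Migs. TP53INP1, which promotes p53-dependent death and autophagy, had 13 reads with PBS and 202 to 291 with Migs (log2 fold changes 3.78 to 4.27).

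PLK2, a polo-like kinase, fell from 4429 reads with PBS to 1772, 2296 and 2239, with log2 fold changes of -1.30, -1.16 and -1.005. ZMAT3, an RNA-binding p53 effector, fell from 1751 reads to 682, 940 and 844 (-1.34, -1.11 and -1.07). Between Mig libraries, 1 target met the criteria in 1 pair, normo-Migs against CD147KO-Migs. SPATA18, outside the rule for named genes and picked after its values were seen, had 0 reads with PBS and 39, 22 and 7 reads with normo-Migs, hypo-Migs and CD147KO-Migs. Most of the list went the other way: 31 of 39 targets were lower with normo-Migs than with CD147KO-Migs (median log2 fold change -0.11, all genes 0.0014). Against CD147KO-Migs, hypo-Migs also had 31 lower (median -0.10, all genes 0.00038). For hypo-Migs against normo-Migs 21 were higher and 18 lower. Both counts of 31 rest on the 1 CD147KO-Migs library, so they are not independent. The lean was not particular to p53 targets: of 15 E2F targets, 11 were lower with normo-Migs and 14 with hypo-Migs than with CD147KO-Migs. Of 12 RB and E2F family genes, 8 and 9 were lower. The counts were 10 and 9 of 18 p53 regulators, 10 and 8 of 16 genes that control CDK inhibitors, and 4 and 7 of 12 G1 kinases and cyclins. The cause was not tested.

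Among the G1 kinases and cyclins, 1 of 12 genes was higher in all 3 pairs with PBS and none was lower, a share of higher genes below the 12.6% of all genes tested. This was CCND2, with 0 reads with PBS and 18, 8 and 14 with normo-Migs, hypo-Migs and CD147KO-Migs, at least 2.29-fold higher against a floor of 3 reads in the PBS library. The main D-type cyclin here was CCND1, with 5044 reads with PBS and 9423 to 10782 with Migs (log2 fold changes 0.88 to 0.95). CDK6 had 3210 reads with PBS and 5802 to 7339 with Migs (0.83 to 0.97), whereas CDK4 had 3747 and 3201 to 3613 (-0.27 to -0.19). CDKN2D, the fourth INK4 gene (p19), had 119 reads with PBS and 174 to 256 with Migs (0.52 to 0.88). None of these 4 genes met the criteria.

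Downstream of RB1, 1 of 12 RB and E2F family genes was higher in all 3 pairs, again below the 12.6% of all genes tested. E2F1 rose from 1169 reads with PBS to 3465, 3794 and 3749 with normo-Migs, hypo-Migs and CD147KO-Migs, with log2 fold changes of 1.58, 1.48 and 1.66. The other pocket protein genes went apart: RBL1 (p107) had 1251 reads with PBS and 1506 to 1868 with Migs (0.25 to 0.47), and RBL2 (p130) had 2158 and 1136 to 1338 (-0.91 to -0.83), short of the criteria in each pair. Of 15 E2F targets, none was higher and 1 was lower in all 3 pairs, against 12.6% higher and 6.66% lower over all genes tested, so the count of lower genes was that of the background. That gene was RRM1, the large subunit of ribonucleotide reductase, which fell from 29030 reads to 7462, 8574 and 7419 (-1.94, -1.98 and -1.99). The median log2 fold change of these targets was -0.23, -0.35 and -0.22.

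Among 16 genes that control CDK inhibitors, 2 were higher and none lower in all 3 pairs with PBS, which is no more than the 12.6% of all genes tested that were higher. FOXO4, a forkhead factor that can activate CDKN1B, had 208 reads with PBS and 772, 972 and 867 with Migs (log2 fold changes 1.90, 2.00 and 2.03). KCNQ1OT1, the long noncoding RNA of the imprinted domain that holds CDKN1C, had 0 reads with PBS and 160, 190 and 180 with normo-Migs, hypo-Migs and CD147KO-Migs, at least 54.0-fold higher than a floor of 3 reads. CDKN2B-AS1, the antisense RNA of the CDKN2B locus, had 86 reads with PBS and 119, 129 and 111 with Migs (0.48, 0.36 and 0.34), short of the criteria.

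**Figure D5:**
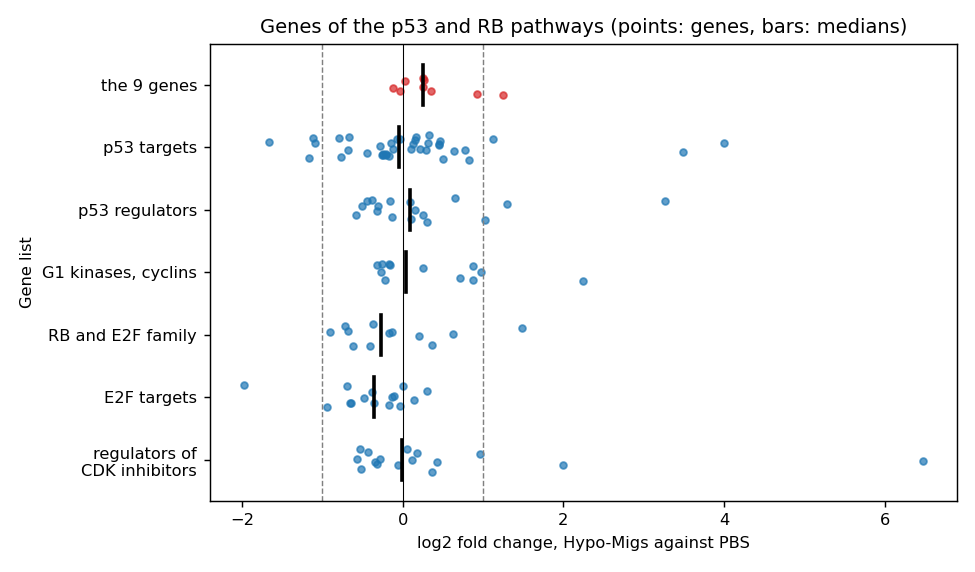
Log2 fold change between the hypo-Migs and PBS libraries (x axis) for the 9 genes and 6 gene lists of the p53 and RB pathways (y axis), 1 point per gene shown and a bar at each median. Dashed lines mark the fold criterion. The 9 genes lie between -0.13 and 1.24 with a median of 0.26, and each list has points on both sides of 0.

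The relatives of GADD45A differed from it. GADD45B had 586 reads with PBS and 827, 968 and 864 with Migs (log2 fold changes 0.51, 0.50 and 0.54), with no difference between Mig libraries beyond the criteria. GADD45G had 0 reads with PBS and 21, 13 and 18 with Migs, at least 3.73-fold higher than a floor of 3 reads.

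The neighbours of the members on their chromosomes were read as well. Next to CDKN2A and CDKN2B, 1 of 6 genes was higher in all 3 pairs with PBS, where 12.6% of all genes tested were. It was IFNE, an epithelial interferon, with 15 reads with PBS and 117, 180 and 132 with Migs. MTAP, which is often lost together with CDKN2A in tumours, had 1892 reads with PBS and 2834, 3617 and 3091 with Migs (0.60, 0.72 and 0.69), so reads were present on both genes in every library. Next to RB1, ITM2B rose from 2379 reads to 4892, 6061 and 5505 (1.06, 1.13 and 1.19). LPAR6, which lies in an RB1 intron on the opposite strand and shares no exonic base with it, had 4, 7, 13 and 15 reads with PBS, normo-Migs, hypo-Migs and CD147KO-Migs.

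The profile of CDKN1A across the 4 libraries was compared with that of 11440 protein-coding genes by the Euclidean distance of centred log2 CPM, over 4 points that share the same libraries. The nearest were COX6C, a subunit of cytochrome c oxidase (distance 0.013), DLG5, a scaffold protein of cell polarity (0.018), and LURAP1L (0.020). COX6C had 1113 reads with PBS and 2541, 3092 and 2756 with normo-Migs, hypo-Migs and CD147KO-Migs, DLG5 had 1779 and 4066, 4864 and 4302, and LURAP1L had 226 and 527, 637 and 563.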

How the data were processed

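RNA-seq of 4 MHCC-97H libraries was analysed, 1 per condition. The authors deposited raw counts of reads per gene, and FPKM values in which the authors divided reads by gene length and library size. The submitters' processing notes name CASAVA 1.8, fastp, HISAT2 2.0.5, featureCounts 1.5.0-p3 and hg38. The handling of strands and of reads with several matches is not given in the sources used here. The 58735 genes have the coordinates of GENCODE release 29. The labels name a SMARTer mRNA kit, whereas the supplementary methods describe poly-T beads.

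The software was edgeR 4.0.16 and DESeq2 1.42.0 under R 4.3.3, and Python 3.11.15 (numpy 2.4.6, pandas 2.3.3, scipy 1.17.1, matplotlib 3.10.9). A gene was tested where any library had 10 or more reads on it (19895 genes). TMM factors lay between 0.986 and 1.02, and a prior count of 2 was added for log2 fold changes. Without replicates, edgeR's quasi-likelihood test has no residual degrees of freedom. The reads of 2 libraries were therefore set against each other by the exact binomial test of edgeR (two-sided), or with the binomial test of R above 10000 summed reads, where edgeR's function changes to an approximation. P-values were adjusted by Benjamini-Hochberg over the genes tested. Exact 95% intervals of ratios and Wilson intervals of shares cover counting error only, and the 3 reads that a count of 0 allows are 0.0745 to 0.0885 CPM. The procedure was tested on simulated data with counting noise only, which cannot show how it fares with spread between cultures.

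The 9 genes, the context lists and the rule for naming genes were chosen with earlier results of these data known. The rule took, from each list, up to 4 genes with the most reads among those that met the criteria in the same direction in all pairs with PBS, genes averaging 50 or more reads that met them in a pair of Mig libraries, a fixed set (MDM4, CDKN2D, CDKN2B-AS1, MTAP, LPAR6, RBL1, RBL2, CDK4, CDK6, CCND1, E2F1, GADD45B, GADD45G, BSG) and the 3 nearest profiles of each member that met the criteria in all 3 pairs with PBS. Promoter windows were taken from a RefSeq table, which matched 7 of the 9 genes. CDKN1C and GADD45A had no entry. The alternatives concerned scaling, filters, the prior count, FPKM values, the criteria, assumed coefficients of variation and DESeq2. The Western blots, imaging and animal data were not analysed here. A few results that this rule covers are not reported here.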

Additional observations from a re-analysis of the deposited data

How the results depend on the processing

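The log2 fold changes of the 9 genes were recomputed under each alternative that applied, 675 values in all, and 665 kept their direction and their side of the criteria. The 6 that no longer met the criteria were those of CDKN1A against PBS under an assumed coefficient of variation of 0.4 and under DESeq2, which took the 4 libraries as replicates, so that 0 members met the criteria in each pair with PBS in both cases. In 4 cases the direction turned, each between values near 0: RB1 for hypo-Migs against PBS (-0.0051 with library size alone), CDKN2B for hypo-Migs against normo-Migs (0.0047 with library size alone, and 0.00022 among genes averaging 500 reads or more, a filter chosen after seeing the data), and CDKN2C for hypo-Migs against CD147KO-Migs (0.0020 with no filter). The cause was not tested.

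The number of all genes that met the criteria is given in the order normo-Migs, hypo-Migs and CD147KO-Migs against PBS, then hypo-Migs against normo-Migs, hypo-Migs against CD147KO-Migs and normo-Migs against CD147KO-Migs. It was 5414, 5640, 5462, 977, 1004 and 974 as reported. With at least 10 reads in every library it was 2683, 2747, 2752, 235, 217 and 239, and with an average of 500 reads or more 1096, 1142, 1137, 5, 4 and 5. From log2(FPKM + 1) it was 1619, 1674, 1658, 56, 80 and 66. An assumed coefficient of variation of 0.4 gave 1535, 1633, 1575, 0, 1 and 2. An assumed coefficient of variation of 0.1 gave 259, 228 and 281 in the pairs of Mig libraries, and the fold change alone gave 1869, 1817 and 1883 there. DESeq2 gave 0 in all pairs.

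No paired analysis was possible because each condition had 1 library and the labels give no replicate numbers. Leaving a library out removes its condition. Counting error of the members was small (507 reads or more), whereas the spread between cultures was not measured in any comparison, and the pairs with PBS rest on 1 library that stood apart from the others.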
